A study of Caenorhabditis elegans with 12 samples.

Results

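This comparison sets 3 libraries of daf-2(e1370) animals, strain CF1041, against 3 libraries of pfd-6(gk493446) animals, strain IJ462, which is 6 of the 12 libraries of the study. Both genotypes carry a single labelled mutation, in the gene for the insulin/IGF-1 receptor and in the gene for a prefoldin subunit, so neither is a control of the other. The other 6 libraries, 3 of the pfd-6(gk493446); daf-2(e1370) double mutant (IJ485) and 3 of the wild type N2, are used here only to show where a level lay in them. All animals were whole Caenorhabditis elegans taken on day 1 of adulthood from plates with the sterilising drug FUdR, and mRNA was sequenced from paired ends. Per the labels' protocol, animals reached new plates as L4 larvae, with bacteria for control or pfd-6 RNA interference, the series text speaks of hsf-1 RNA interference, and no label says which plate a library came from. Each genotype is 1 strain, so the named mutation and any other difference between the strains cannot be told apart. The libraries are labelled as biological repeats numbered 1 to 3, the last set of which was made later, with no statement of which number that was.

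DAF-2 is the only insulin/IGF-1 receptor of the worm. When it signals, kinases downstream keep the FOXO transcription factor DAF-16 out of the nucleus, and when it signals less, DAF-16 enters the nucleus and activates genes for stress resistance, detoxification and fat handling while other transcripts fall. Prefoldin is a complex of small subunits that takes newly made actin and tubulin chains and hands them to the chaperonin TRiC/CCT, and the study asks how its subunit PFD-6 bears on the long life of daf-2 animals.

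Levels below are CPM, the counts of a gene relative to the scaled total of its library, in libraries 1, 2 and 3 of each genotype, with all 12 libraries scaled together. Fold changes are daf-2 over pfd-6 on the log2 scale with their standard error (SE), from edgeR's quasi-likelihood test of the 6 libraries with the replicate number as a block, and a gene is called where its Benjamini-Hochberg adjusted p is under 0.05. The labelled mutations were looked at first. Transcripts of pfd-6 itself (WBGene00009004; WBcel235, chromosome I, 7282964 to 7283762) stood at 160, 77.9 and 66.6 CPM in daf-2 animals, against 21.6, 11.3 and 8.85 CPM in pfd-6 animals. The ranges do not overlap, the double mutant was as low as the pfd-6 animals at 14.4 to 16.5 CPM, and N2 was as high as the daf-2 animals at 87.5 to 145 CPM. The difference was 2.82 (SE 0.22, adjusted p = 0.000823; without the block 0.0931). Transcripts of daf-2, whose e1370 allele changes the protein and is not known to remove the transcript, stood at 85.5, 131 and 106 CPM in daf-2 animals, against 38.8, 107 and 61.1 CPM in pfd-6 animals, and were not called (0.70, adjusted p = 0.21; without replicate 3 0.00276). Neither daf-16 (-0.04, adjusted p = 0.976) nor hsf-1, the heat shock factor gene (0.25, adjusted p = 0.747), was called.

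Of 46904 gene IDs, 14145 had at least 10 counts in at least 3 of the 6 libraries and were tested. In daf-2 animals 219 genes were called higher and 115 lower than in pfd-6 animals, 334 in all or 2.36% of the genes tested (1.55% higher, 0.813% lower). The median log2 fold change was 2.44 among the genes called higher and -2.51 among those called lower, against 0.05 over all genes tested, and 76 of the calls higher and 42 of the calls lower reached 8-fold. All 334 had the same direction in the 3 same-numbered pairs of libraries, on which the fit is blocked, against 33.6% of all genes tested. In 263 of them (78.7%) the daf-2 and pfd-6 libraries did not overlap, against 7.93% of all genes tested. Without the block, 37 genes passed (26 higher, 11 lower). Without replicate 3, both libraries of which are low in ribosomal protein transcripts, 1936 passed, among them all 334.

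**Figure D1:**
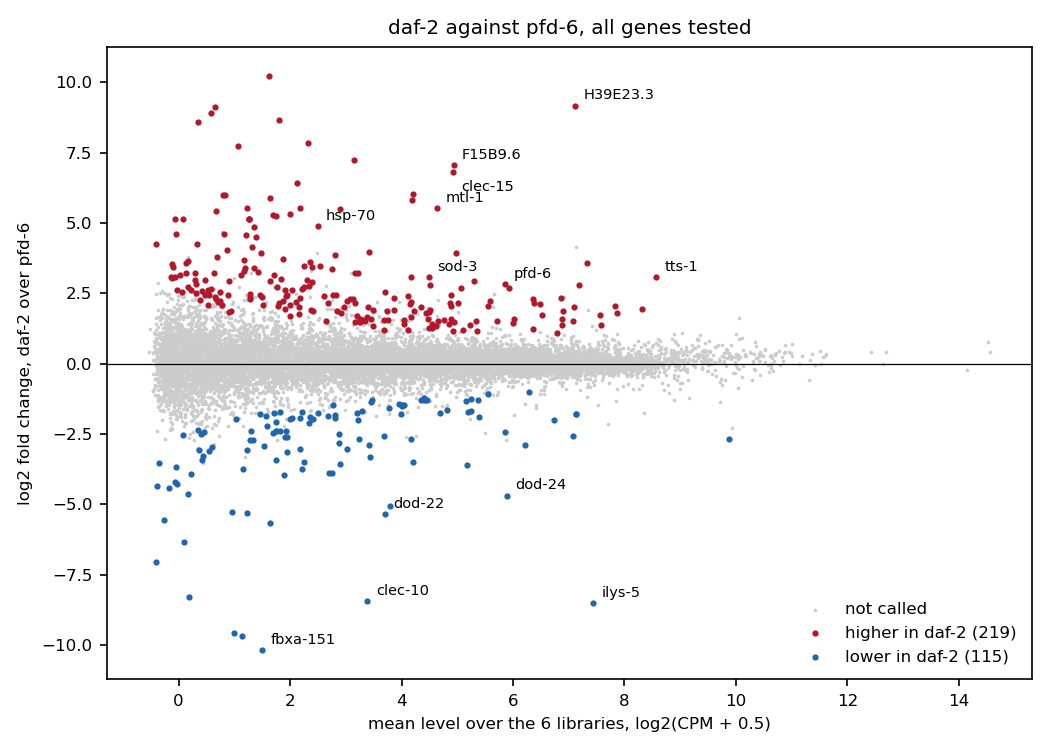
Log2 fold change, daf-2 over pfd-6, against the mean level over the 6 libraries, as log2 of CPM plus 0.5, with 1 point per gene tested. The 219 genes called higher in daf-2 are red, the 115 called lower are blue, and the calls lie at all but the highest levels.

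The 3 replicates were not alike in depth or content. Total counts of the 6 libraries lay between 22854344 and 32029679. Ribosomal protein genes took 13.8%, 10.5% and 1.52% of the counts in daf-2 libraries and 16.8%, 10.7% and 0.664% in pfd-6 libraries, against 9.94% to 13.04% in the double mutant and N2. The hypodermis marker col-19 followed the same pattern. It was at 1220, 1328 and 86.2 CPM in daf-2 libraries and 1347, 1143 and 47.9 CPM in pfd-6 libraries. It made up nearly all of the sum with the hypodermis markers dpy-7 and elt-3, so that sum says little about those genes. The drop in replicate 3 was thus shared by both genotypes, and its part in any single result was not tested. In these libraries of whole animals, fewer cells of a type and less RNA per cell cannot be told apart.

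Of 49 genes listed as raised by DAF-16, 45 were tested, and 14 were called higher in daf-2 animals and 1 lower, 33.3% against 2.36% over all genes. A positive fold change was seen in 40 (88.9%), against 55.8% of all genes tested, and the median was 1.10 against 0.05. The mitochondrial manganese superoxide dismutase sod-3 (WBGene00004932; chromosome X, 17092753 to 17094306), the usual readout of DAF-16 activity, stood at 56.0, 34.3 and 27.9 CPM in daf-2 animals, against 5.61, 3.72 and 3.80 CPM in pfd-6 animals. Every daf-2 library lay above every pfd-6 library, and the difference was 3.09 (SE 0.25, adjusted p = 0.00111). Its levels in the double mutant were 21.4, 22.2 and 23.4 CPM, and those in N2 9.06, 7.68 and 6.14 CPM, so both lay between the single mutants. The metallothionein mtl-1 (WBGene00003473; chromosome V, 6691371 to 6691863), which binds heavy metals, had 82.9, 35.2 and 25.3 CPM in daf-2 animals, against 1.70, 1.16 and 0.297 CPM in pfd-6 animals. That was the largest called difference of the list, at 5.54 (SE 0.35, adjusted p = 0.000427).

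The listed tts-1 (WBGene00006650; chromosome X, 1504131 to 1504841) is a long noncoding RNA. It reached 971, 565 and 517 CPM in daf-2 animals, against 87.4, 81.1 and 62.7 CPM in pfd-6 animals (3.06, SE 0.30, adjusted p = 0.00215). Further rises came from metabolic genes. The nicotinamide nucleotide transhydrogenase nnt-1 had 21.1, 36.8 and 28.6 CPM in daf-2 animals, against 4.26, 7.81 and 6.47 CPM in pfd-6 animals (2.18, adjusted p = 0.00327). The cytochrome P450 gene cyp-35B1 had 16.5, 12.2 and 16.9 CPM in daf-2 animals, against 1.64, 2.29 and 1.02 CPM in pfd-6 animals (3.21, adjusted p = 0.00396). Neither gene's groups overlapped. Also higher were hil-1, a linker histone gene (2.34), btb-16 (2.16), ugt-13 (2.06), scb-1 (2.02), cyp-34A9 (2.003), lea-1, a relative of plant proteins of desiccation tolerance (1.94), acs-17, an acyl-CoA synthetase (1.47), and the palmitoyl-CoA desaturase fat-5 (1.10, adjusted p = 0.0452). The call of fat-5 was lost without replicate 1 (adjusted p = 0.181) and without replicate 2 (0.0885), and that of cyp-34A9 likewise (0.0812 and 0.0531).

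Not every listed gene went this way. The AMP-activated kinase subunit aakg-4 was at 3.58, 2.27 and 2.88 CPM in daf-2 animals, against 13.1, 7.89 and 9.20 CPM in pfd-6 animals, with no overlap (-1.82, adjusted p = 0.0128). The gene dod-6 was 4.14 higher with an SE of 0.92 and an adjusted p of 0.0644, so it was not called although its libraries, at 337, 291 and 142 CPM in daf-2 animals and 2.90, 15.6 and 47.7 CPM in pfd-6 animals, did not overlap. Neither the catalases ctl-1 and ctl-2 nor the glyoxylate enzyme icl-1 was called. With no block, 3 listed genes were called higher and 0 lower, and without replicate 3 it was 28 and 3. These genes come from published work on daf-2 animals and, for some such as scb-1, from earlier results on these libraries, and those taken from these libraries are not independent evidence.

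**Figure D2:**
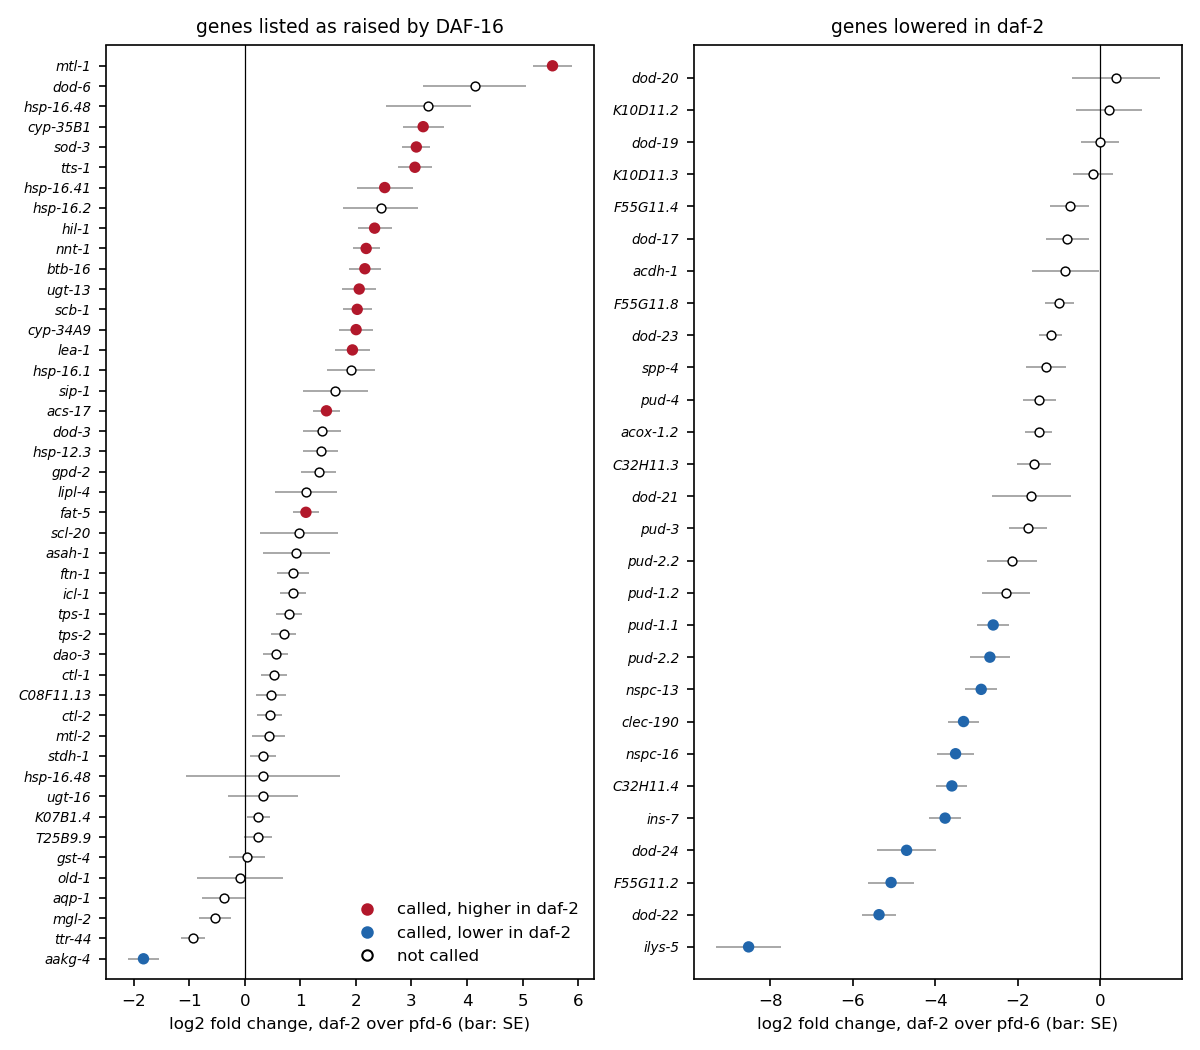
Log2 fold change, daf-2 over pfd-6, with its SE as a bar, for 45 tested genes listed as raised by DAF-16 (left) and 28 genes listed as lowered in daf-2 (right). Filled points passed the test: 14 red and 1 blue on the left, from mtl-1 at 5.54 to aakg-4 at -1.82, and 11 blue on the right, down to ilys-5 at -8.52.

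Genes listed as lowered in daf-2 animals, several of them for defence against microbes, were called in that direction alone in the blocked fit of the 6 libraries. Of 28 genes of that list, all tested, 11 were called lower in daf-2 and 0 higher, 39.3% against 2.36% over all genes. Their median was -1.71. With no block 6 were called lower and 0 higher. Without replicate 3 it was 20 lower and 3 higher (dod-19, dod-20 and K10D11.2). Several of these genes were put on the list because earlier results on these libraries showed them low in daf-2, so the count is not independent evidence of a direction. The invertebrate-type lysozyme ilys-5 (WBGene00017691; chromosome X, 6533490 to 6536840), of a family of enzymes that break bacterial walls, stood at 0.477, 0.843 and 0.633 CPM in daf-2 animals, against 540, 456 and 38.8 CPM in pfd-6 animals. All daf-2 libraries were under 1 CPM, pfd-6 library 3 lay far below pfd-6 libraries 1 and 2, and N2 had 309 to 694 CPM. The difference was -8.52 (SE 0.79, adjusted p = 0.0018), and it was -7.63 without replicate 1 and -9.54 without replicate 3. The neighbours dod-22 and F55G11.2 (chromosome IV, 12965374 to 12969289) fell together. Transcripts of dod-22, named as downstream of DAF-16, were at 0.852, 0.324 and 0.570 CPM in daf-2 animals, against 19.04, 13.4 and 41.0 CPM in pfd-6 animals (-5.36, SE 0.41, adjusted p = 0.000749). The difference for F55G11.2 was -5.07 and for dod-24 -4.69. Levels of dod-24 were 7.84, 5.64 and 1.01 CPM in daf-2 animals, against 134, 50.9 and 153 CPM in pfd-6 animals. Without replicate 3 these differences were -4.41 for F55G11.2 and -3.65 for dod-24, and without replicate 2 they were -5.89 and -5.61.

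The genes with the steepest changes were chosen among calls of at least 10 CPM in the higher genotype. H39E23.3 (WBGene00044201; chromosome V, 14107811 to 14110051) led the rises with 204, 282 and 339 CPM in daf-2 animals, against 0.370, 1.13 and 0.108 CPM in pfd-6 animals (9.17, SE 0.62, adjusted p = 0.000499). It was almost absent from N2 too, at 0.276 to 0.890 CPM, and intermediate in the double mutant at 15.1 to 44.2 CPM. Next came Y39G8B.7 (7.23), F15B9.6 (7.07), the C-type lectin clec-15 (6.81), icmt-1, a methyltransferase gene (6.04), F56D6.9 (5.83), mtl-1, Y9C9A.16 (5.48), fipr-22 (3.96), the RNase H-like gene rnh-1.3 (3.92), the antibacterial peptide gene abf-2 (3.87) and F45D11.14 (3.57). Of these, icmt-1 leaned on 1 library: it had 4.64, 2.43 and 99.5 CPM in daf-2 animals, against 0.339, 0.0376 and 0.432 CPM in pfd-6 animals. Its difference was 4.23 without replicate 3 and 7.49 without replicate 1. Differences also moved by more than 1.5 times without a replicate for H39E23.3 (10.1 without replicate 2, 8.42 without replicate 3), clec-15 (6.11 without replicate 1, 7.47 without replicate 3), Y9C9A.16 (6.32 without replicate 1), fipr-22 (3.22 without replicate 2), rnh-1.3 (4.51 without replicate 1, 3.26 without replicate 3) and F45D11.14 (4.25 and 2.82), with every one still called.

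The 12 steepest falls began with ilys-5 and the C-type lectin clec-10 (WBGene00015403; chromosome II, 402678 to 404180). The level of clec-10 was 0.0341, 0.0648 and 0.0633 CPM in daf-2 animals, against 21.5, 17.1 and 21.1 CPM in pfd-6 animals (-8.45, SE 0.42, adjusted p = 0.000124). The daf-2 levels rest on 5 counts over 3 libraries, and N2 lay close to pfd-6 at 12.97 to 15.75 CPM. The collagen col-43 (-3.89), F23F12.3 (-3.89), C32H11.4 (-3.59), the caenacin peptide gene cnc-2 (-3.58), the infection response gene irg-5 (-3.51), clec-190 (-3.31) and Y49G5A.1 (-3.02) completed them beside the 3 genes of chromosome IV named above. The groups overlapped for col-43, at 0.750, 1.49 and 0 CPM in daf-2 animals and 8.55, 25.1 and 0.243 CPM in pfd-6 animals. They also overlapped for cnc-2, at 2.32, 0.421 and 0.190 CPM in daf-2 animals and 23.7, 14.7 and 0.378 CPM in pfd-6 animals. Without the block the adjusted p was 0.785 for col-43 and 0.652 for cnc-2. Differences moved by over 1.5 times for cnc-2 (-2.63 without replicate 2) and irg-5 (-4.27 without replicate 1, -2.51 without replicate 3), both still called.

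**Figure D3:**
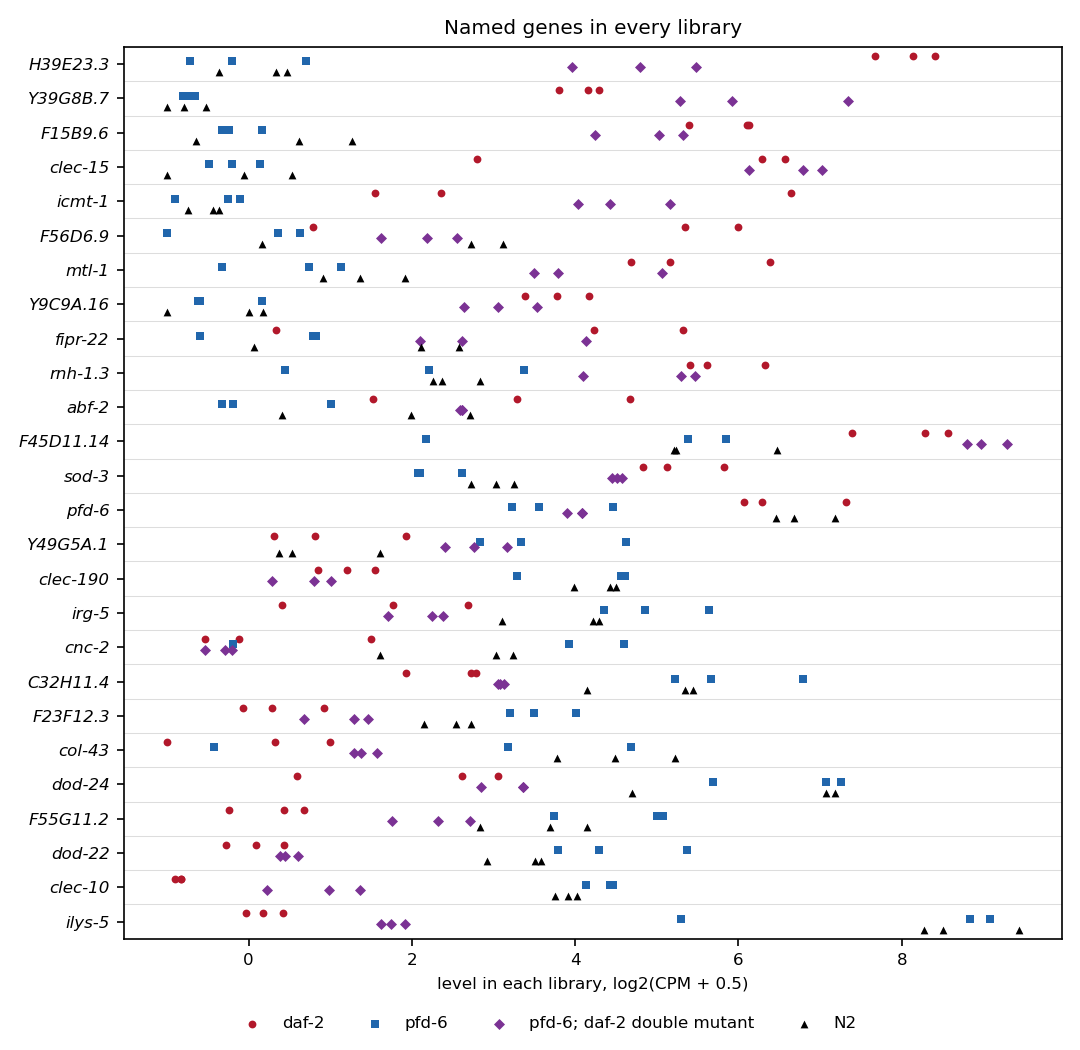
Level of the 12 steepest rises, the 12 steepest falls, pfd-6 and sod-3 in every library, as log2 of CPM plus 0.5, with 1 mark per library and 3 per genotype. For clec-10 the daf-2 marks lie between 0.0341 and 0.0648 CPM and the pfd-6 marks between 17.1 and 21.5 CPM, and for H39E23.3 the daf-2 marks lie at 204 to 339 CPM.

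Insulin-like peptides, the ligands of DAF-2, differed in both directions. Of 39 genes 23 were tested, and 3 were called higher in daf-2 animals and 2 lower (21.7%, against 2.36% over all genes). The median was 0.80. The agonist ins-7, part of a known feedback on DAF-16, was at 0.852, 0.454 and 0.411 CPM in daf-2 animals, against 10.2, 4.10 and 8.82 CPM in pfd-6 animals (-3.76, SE 0.38, adjusted p = 0.00238). No library of one group reached the other. For ins-10 the levels were 5.15, 3.08 and 3.07 CPM in daf-2 animals, against 0.0617, 0.0751 and 0.539 CPM in pfd-6 animals (4.16, adjusted p = 0.0188; 3.49 without replicate 1 and 5.83 without replicate 3). Smaller rises were called for ins-24 (3.57; adjusted p = 0.0589 without replicate 2) and ins-26 (2.58). The peptide ins-19 was at 0.580, 0.583 and 0.570 CPM in daf-2 animals, against 4.63, 4.13 and 1.32 CPM in pfd-6 animals (-2.41, adjusted p = 0.0318). It was near 0 in N2, at up to 0.0264 CPM, and at up to 0.239 CPM in the double mutant. Both single mutants thus lay above N2, the pfd-6 animals the most. The call of ins-19 was lost without replicate 1 (adjusted p = 0.198) and without replicate 2 (0.097). Among 21 genes of the pathway inside the cell, the kinases, the phosphatase and the transcription factors, 0 were called in either direction by edgeR (median 0.24). Of these, 4 had an unadjusted p under 0.05, all higher in daf-2, DESeq2 called 2 and limma-voom 0. With edgeR 3 were called higher with no filter on low counts, and 5 without replicate 3 (daf-2, akt-2, ist-1, pdk-1 and pqm-1).

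Apart from pfd-6, 0 of the other prefoldin genes were called by edgeR, DESeq2 or limma-voom, and 0 had an unadjusted p under 0.05. Without replicate 3, edgeR called pfd-1 lower in daf-2. Transcripts of pfd-1, pfd-2, pfd-3, pfd-4, pfd-5 and the prefoldin-like uri-1 differed by -0.46, -0.13, -0.12, -0.18, -0.24 and -0.18, with adjusted p of 0.398 and above. The 8 genes of TRiC/CCT, the chaperonin that receives prefoldin's clients, had 0 calls by edgeR, DESeq2 or limma-voom and 0 genes with an unadjusted p under 0.05, and their median of 0.16 turned to -0.16 without replicate 3. Of 19 tested tubulin and actin genes, the proteins that prefoldin binds, 1 was called, the alpha-tubulin tba-7 (1.52, adjusted p = 0.0238). That was 5.26%, against 2.36% over all genes, a share at which lists as short as these would hold few calls or none. Levels of tba-7 were 40.9, 61.8 and 9.78 CPM in daf-2 animals, against 9.81, 21.2 and 4.61 CPM in pfd-6 animals, with overlap between the groups. That call was lost without replicate 1 (adjusted p = 0.0626) and without replicate 2 (0.0815). Another alpha-tubulin, tba-2, named here after its values were seen, was at 794, 1393 and 118 CPM in daf-2 animals, against 809, 1603 and 25.4 CPM in pfd-6 animals. Its fold change of 0.58 was not called (adjusted p = 0.732), and only the pair of replicate 3 was higher in daf-2.

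Few heat shock genes were called. Of 26 tested genes of cytosolic heat shock proteins, chaperones that HSF-1 induces, 3 were higher in daf-2 animals and 0 lower. That was 11.5%, against 2.36% over all genes, where 65.6% of calls were higher. Only the call of hsp-70 was kept without the block. Transcripts of hsp-70 (chromosome I, 9320325 to 9322519) were at 7.77, 16.9 and 5.16 CPM in daf-2 animals, against 0.463, 0.225 and 0.189 CPM in pfd-6 animals (4.89, SE 0.48, adjusted p = 0.00215). F44E5.5, of the same family and hard to tell from a near-identical neighbour, had 15.48, 39.99 and 10.38 CPM in daf-2 animals, against 2.16, 4.51 and 3.02 CPM in pfd-6 animals (2.55, adjusted p = 0.00764). All pfd-6 libraries lay below all daf-2 libraries for both genes, and N2 had 0.620 to 8.27 CPM of hsp-70 and, with 1 library at 0, up to 46.4 CPM of F44E5.5. The small heat shock gene hsp-16.41, also of a pair of similar copies, was called at low levels (2.52, adjusted p = 0.0395; 0.157 without replicate 1 and 0.133 without replicate 2). Folding genes of the endoplasmic reticulum (20 tested) and mitochondrial stress genes (15 tested) had 0 calls by edgeR, with 1 and 2 genes at an unadjusted p under 0.05 0 and 1 called by DESeq2, and 0 by limma-voom.

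Genes of detoxification had calls in both directions. Cytochrome P450 genes had 5 calls higher and 2 lower of 54 tested (12.96%), UDP-glucuronosyltransferases 5 and 1 of 62 (9.68%), and glutathione transferases 2 and 0 of 39 (5.13%), against 2.36% over all genes, where 65.6% of calls were higher. The neighbours ugt-8, ugt-14 and ugt-13 (chromosome V, 4903930 to 4911399) rose together, by 2.73, 2.40 and 2.06. For ugt-13 the levels were 40.5, 47.6 and 52.3 CPM in daf-2 animals, against 11.17, 6.4996 and 17.07 CPM in pfd-6 animals. The oxidase cyp-13A2 went the other way, with 1.53, 0.810 and 2.50 CPM in daf-2 animals, against 7.65, 5.67 and 23.1 CPM in pfd-6 animals (-2.83, adjusted p = 0.00355). The call of ugt-14 was lost without replicate 2 (adjusted p = 0.0853), and those of gst-29 (1.48; 0.227 and 0.181) and ugt-53 (-1.72; 0.292 and 0.062) without replicate 1 and without replicate 2.

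Genes of defence against microbes also split. C-type lectins, sugar-binding proteins many of which respond to pathogens, had 3 calls higher and 9 lower of 101 tested (11.9%, against 2.36% over all genes). The 9 include 2 identical entries of clec-209 that cannot be told apart. Lysozymes had 2 calls, both lower (ilys-5 and lys-6), of 9 (22.2%). Saposin-like proteins had 3 higher and 0 lower of 22 (13.6%). The neighbours spp-9 and spp-21 (chromosome X, 11487784 to 11490494) were 2 of these: spp-9 had 18.3, 3.76 and 4.84 CPM in daf-2 animals and 3 counts over the pfd-6 animals, while spp-21 had 4.40, 0.843 and 0.696 CPM in daf-2 animals and 0 counts in pfd-6 animals, at least 63.4-fold higher against a floor of 3 counts over the group. The lectin clec-18 had 2.69, 1.65 and 5.13 CPM in daf-2 animals and 1 count over the pfd-6 animals. Of the pals genes, which are linked to the response to intracellular parasites, 3 were higher and 1 lower of 20. Levels of pals-26 were even among libraries, at 8.28, 7.97 and 9.87 CPM in daf-2 animals, against 0.771, 0.751 and 0.782 CPM in pfd-6 animals (3.45, SE 0.32, adjusted p = 0.00179). For 4 called genes without replicate 1, the adjusted p was 0.0738 for spp-27, 0.15 for pals-14, 0.27 for pals-27 and 0.166 for pals-1, and without replicate 2 it was 0.0671 for spp-27, 0.0793 for pals-14 and 0.0525 for pals-1.

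Calls in fat and sugar metabolism were 2 of 23 genes of fat synthesis and desaturation (8.7%), 1 of 18 lipases and fatty acid binding proteins (5.56%), 2 of 37 beta-oxidation genes (5.41%) and 1 of 27 genes of the glyoxylate cycle, trehalose and gluconeogenesis (3.7%), against 2.36% over all genes. The stearoyl-CoA desaturase fat-7 was at 18.96, 16.49 and 8.55 CPM in daf-2 animals, against 109, 46.4 and 17.8 CPM in pfd-6 animals (-1.74, SE 0.31, adjusted p = 0.026; 0.0697 without replicate 1), while the related fat-5 was higher as given above. The lysosomal lipase lipl-1 was at 68.7, 51.1 and 117 CPM in daf-2 animals, against 17.4, 20.5 and 9.98 CPM in pfd-6 animals (2.23, adjusted p = 0.0264). Both groups were apart for lipl-1, and library 3 of pfd-6 overlapped the daf-2 range for fat-7. The beta-oxidation enzyme hacd-1 had 134, 153 and 131 CPM in daf-2 animals, against 53.4, 49.4 and 25.6 CPM in pfd-6 animals (1.72, adjusted p = 0.0112). The gluconeogenic enzyme gene pck-1 had 183, 340 and 32.8 CPM in daf-2 animals, against 60.2, 181 and 7.50 CPM in pfd-6 animals (1.498, adjusted p = 0.0263), higher in each pair although the groups overlap. Of 6 vitellogenin genes, which encode yolk, 0 were called by edgeR, DESeq2 or limma-voom, with 0 at an unadjusted p under 0.05. The call of the acyl-CoA oxidase acox-1.4 (1.26) was lost without replicate 1 (adjusted p = 0.0584) and without replicate 2 (0.0834).

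Cuticle collagens of the col family had 10 calls higher and 1 lower of 86 tested (12.8%, against 2.36% over all genes). Their median was 0.59. The level of col-142 was 352, 405 and 21.9 CPM in daf-2 animals, against 44.9, 40.2 and 4.94 CPM in pfd-6 animals (2.79, SE 0.30, adjusted p = 0.0025). Library 3 was the lowest of each genotype, as it was for col-19, and the daf-2 library of that number lay below 2 of the pfd-6 libraries. The level of col-92 was 90.1, 77.6 and 2.79 CPM in daf-2 animals, against 17.99, 9.66 and 0.351 CPM in pfd-6 animals (2.70, adjusted p = 0.00221). In the double mutant both were above the daf-2 animals, at 589 to 618 and 184 to 286 CPM. No collagen was called without the block, 1 in the fit of all 12 libraries, and 27 higher and 4 lower without replicate 3. All 10 tested body-shape collagen genes had a positive fold change (median 1.06), but 0 were called by edgeR, DESeq2 or limma-voom, and 1 had an unadjusted p under 0.05.

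Of 18 genes for small secreted peptides of the nspc family, all on the X chromosome and all tested, 9 were called lower in daf-2 animals and 0 higher. That was 50.0%, against 2.36% over all genes. The median was -1.54, and 1 member had a positive fold change. Levels of nspc-16 were 1.5, 0.551 and 0.253 CPM in daf-2 animals, against 12.2, 4.02 and 7.01 CPM in pfd-6 animals (-3.50, SE 0.44, adjusted p = 0.0062). Those of nspc-13 were 4.40, 2.66 and 0.918 CPM in daf-2 animals, against 27.8, 11.08 and 13.97 CPM in pfd-6 animals (-2.88, adjusted p = 0.00814). The copies are similar in sequence and reads may be split among them, 2 of the genes are also on the list of genes lowered in daf-2, and 0 were called without the block, against 15 without replicate 3.

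Degradation, regulation and other families gave scattered calls. Of 61 lysosome and autophagy genes 3, all proteases, were higher and 0 lower (4.92%, against 2.36% over all genes). The cathepsin B-like cpr-2 was at 2.11, 2.62 and 18.3 CPM in daf-2 animals, against 0, 0.225 and 0 CPM in pfd-6 animals (6.41, SE 1.06, adjusted p = 0.0179), and the aspartyl protease asp-18 was at 2.28, 3.31 and 18.1 CPM in daf-2 animals, against 0.0309, 0.413 and 0 CPM in pfd-6 animals (5.53, adjusted p = 0.0322). Both were highest in daf-2 library 3, and without replicate 3 the differences were 4.53 and 3.84, against 11.4 and 8.90 without replicate 2. The related cpr-3 was 1.66 higher (adjusted p = 0.0167; 0.0599 without replicate 1). Of 184 tested nuclear hormone receptor genes nhr-62, known from longevity under dietary restriction, was called alone, with 28.5, 21.8 and 16.7 CPM in daf-2 animals, against 5.06, 4.58 and 7.90 CPM in pfd-6 animals (1.90, adjusted p = 0.0242; 0.0597 without replicate 2). F-box genes, adaptors for protein degradation, had 2 calls higher and 2 lower of 232 (1.72%), and nuclear hormone receptors 0.543%, both below the 2.36% over all genes. Without replicate 3 it was 48 F-box genes higher and 3 lower (21.98%), above the 13.7% over all genes there, and 20 receptors higher and 2 lower (11.96%).

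Lists of other tissues gave few calls or none. Over all genes tested 2.36% were called, a share at which lists of these sizes would hold few calls. The 60 tested sperm genes had 0 calls by edgeR, although 8 alone had a positive fold change, the median was -1.04, and 20 had an unadjusted p under 0.05, all lower in daf-2 (DESeq2 called 1, limma-voom 0). The summed level of 55 sperm markers was 44.1, 26.0 and 12.9 CPM in daf-2 animals, against 127, 19.8 and 43.2 CPM in pfd-6 animals and 336 to 785 CPM in the double mutant. These levels overlap between the single mutants. The oocyte and germline, embryo, neuron, pharynx and intestine lists had 0 calls by edgeR, with 0, 1, 10, 3 and 2 genes at an unadjusted p under 0.05, and both DESeq2 and limma-voom called 1 gene, in the neuron list. Of 28 muscle genes (3.57% called) the troponin tni-3 was called lower (-1.29, adjusted p = 0.0319; 0.185 without replicate 1 and 0.141 without replicate 2). Ribosomal protein genes had 0 calls of 82 by edgeR, DESeq2 or limma-voom and 0 genes with an unadjusted p under 0.05, and their median of 0.31 turned to -0.28 both without the block and without replicate 3.

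**Figure D4:**
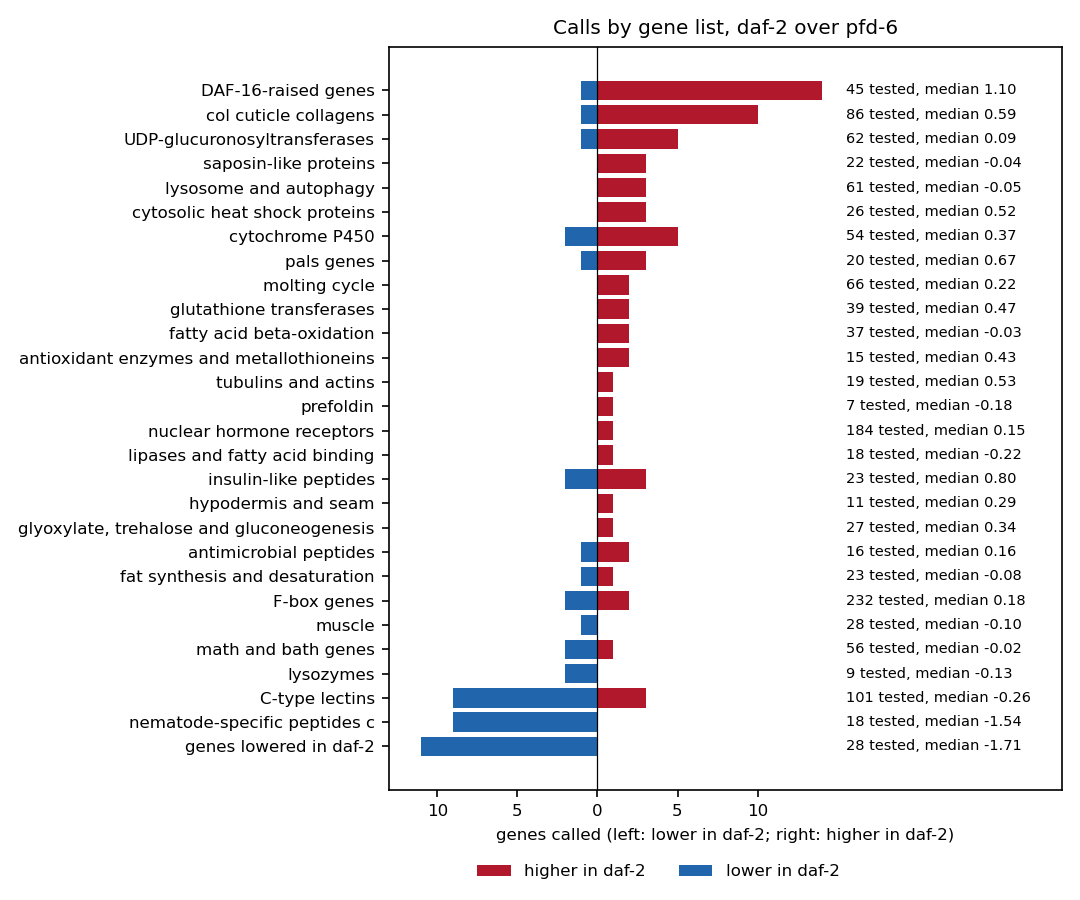
Genes called in each list with at least 1 call, as bars to the right for higher and to the left for lower in daf-2 than in pfd-6 animals, with the number tested and the median log2 fold change beside them. The longest bars are those of the genes listed as raised by DAF-16 (14 higher, 1 lower), the col collagens (10 and 1), the genes lowered in daf-2 (0 and 11), the nspc peptides (0 and 9) and the C-type lectins (3 and 9).

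Because both genotypes are mutants, a difference between them can lie with either one. Each called gene's mean log2 level in N2 and in the double mutant was therefore placed by which of the single mutants it lay nearer to, as a description with no test. Of the 219 genes called higher in daf-2, 132 (60.3%) had N2 nearer pfd-6 and the double mutant nearer daf-2. In 46 (21.0%) both were nearer daf-2, and in 37 (16.9%) both were nearer pfd-6. The genes called lower were placed alike, with 80 of 115 (69.6%) in the first class, 20 (17.4%) in the second and 12 (10.4%) in the third. Libraries of replicates 1 and 2 alone gave 145, 23 and 46 of the genes called higher and 93, 6 and 14 of those called lower, so the second class shrank most.

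Genes for which both lay nearer pfd-6, named here after their values were seen, include hmt-1, a transporter of heavy metal chelates (WBGene00001815; chromosome III, 11091548 to 11099964). Its levels were 48.9, 80.6 and 77.0 CPM in daf-2 animals, against 6.73, 13.9 and 6.45 CPM in pfd-6 animals (2.94, SE 0.28, adjusted p = 0.00182). The double mutant, at 9.03 to 12.9 CPM, and N2, at 13.58 to 15.98 CPM, overlapped or lay close to the pfd-6 animals. The gene msa-1 was alike, with 234, 135 and 190 CPM in daf-2 animals, against 61.9, 30.9 and 57.1 CPM in pfd-6 animals, 51.7 to 87.1 CPM in the double mutant and 21.99 to 80.7 CPM in N2. The noncoding tts-1 was placed here as well, but its 141 to 293 CPM in the double mutant lay above every pfd-6 library and nearly midway. Others were far-3 (2.32), C08F11.7 (3.21), T23F11.6 (2.45) and btb-16. In the double mutant btb-16, at 5.50 to 5.83 CPM, and C08F11.7, at 3.30 to 4.58 CPM, also lay above every pfd-6 library. The pfd-6 libraries held 2.29 to 3.42 CPM of btb-16 and 0.836 to 2.19 CPM of C08F11.7.

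Genes for which both lay nearer daf-2 include the F-box gene fbxa-151 (WBGene00013840; chromosome III, 1265623 to 1266899). It had 0 counts in all daf-2 libraries and 6.36, 3.34 and 4.23 CPM in pfd-6 animals, at least 142-fold lower in daf-2 against a floor of 3 counts over the group. It was also at 0 in N2 and held 7 counts in the double mutant, all in library 2, so it was not shared by the strains that carry the same pfd-6 allele. The levels of plep-1 were 0.102, 0.227 and 0.285 CPM in daf-2 animals, against 1.91, 1.43 and 1.78 CPM in pfd-6 animals, and up to 0.434 CPM in the double mutant and 0.740 CPM in N2.

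In the remaining class N2 was nearer daf-2 and the double mutant nearer pfd-6, again a placement with no test. It held 4 genes called higher in daf-2, which were pfd-6, scb-1, F44E5.5 and hsr-9, and 3 called lower, among them Y49G5A.1 and fog-3. Transcripts of scb-1 (WBGene00010407; chromosome V, 11118766 to 11119705) were at 33.4, 28.5 and 33.7 CPM in daf-2 animals, against 10.61, 6.4996 and 6.31 CPM in pfd-6 animals (2.02, SE 0.26, adjusted p = 0.00655). The double mutant had 4.97 to 6.38 CPM and N2 18.06 to 28.95 CPM. Those of hsr-9, a relative of the DNA damage protein 53BP1, were at 205, 328 and 561 CPM in daf-2 animals, against 52.3, 144 and 105 CPM in pfd-6 animals, 71.8 to 80.2 CPM in the double mutant and 291 to 637 CPM in N2 (1.82, adjusted p = 0.0178). Transcripts of fog-3, which directs germ cells to become sperm, were at 0.921, 0.940 and 0.823 CPM in daf-2 animals, against 6.14, 5.30 and 2.91 CPM in pfd-6 animals, with 10.9 to 11.5 CPM in the double mutant and 1.19 to 2.34 CPM in N2 (-2.40). With replicates 1 and 2 alone, pfd-6, scb-1, hsr-9, Y49G5A.1 and fog-3 stayed in the class. F44E5.5 and WBGene00013644 left it, and Y94H6A.10 and Y34F4.3 entered it.

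**Figure D5:**
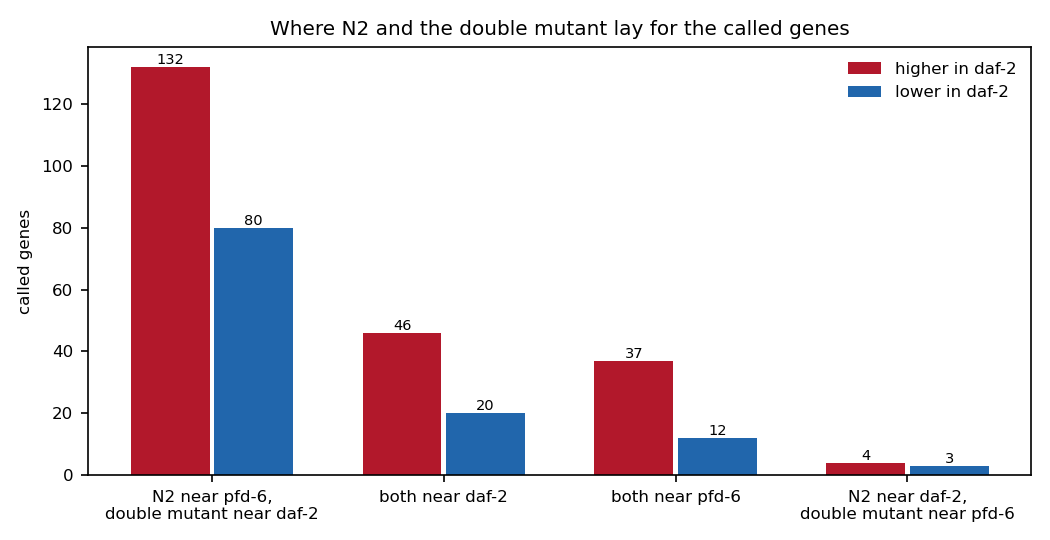
Number of called genes, higher (red) or lower (blue) in daf-2 than in pfd-6 animals, by whether the mean log2 level in N2 and in the double mutant lay nearer to daf-2 or to pfd-6. The largest class, 132 genes higher and 80 lower, has N2 near pfd-6 and the double mutant near daf-2, and the smallest, 4 and 3 genes, the reverse.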

How the data were processed

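Whole-animal mRNA libraries, 12 in all and 3 per genotype, were analysed from 1 deposited table each. Each deposited table holds expected counts, 1 value per gene ID with no scaling to library size, per the file headers. R 3.1.3, limma 3.24.15, RSEM 1.3.1, StringTie 1.3.3 and HISAT2 2.0.5 appear in the submitters' processing notes, which do not say what each did. Genotypes came from the labels.

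Expected counts of the 3 daf-2 and 3 pfd-6 libraries were rounded, genes with at least 10 counts in at least 3 libraries were kept (14145), and edgeR 4.0.16 (R 4.3.3) was fitted with TMM scaling and the replicate number as a block, with Benjamini-Hochberg adjustment over all genes tested. The SE is the fold change over the square root of F. The block rests on the deviations of same-numbered libraries from their genotype means, which correlated at 0.77, 0.692 and 0.727 (other pairs at most 0.129). CPM were scaled by TMM over all 12 libraries. Positions come from the WBcel235 annotation (Ensembl release 115), the build in the processing notes. A floor of 3 counts per group is 0.0327 CPM in daf-2 and 0.0312 in pfd-6, and covers counting error only.

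Named genes were the 12 steepest rises and falls among calls of at least 10 CPM in the higher genotype with 1 direction in all 3 pairs, up to 4 called members per list with the smallest p, and the genes hsf-1, daf-16, daf-2 and pfd-6 whatever their values. Other genes are said to be chosen later. The comparison, its members and the 42 gene lists were chosen with earlier results of these data known, so their counts stand as description. Among genes tested, 59 entries have the values of another entry, 5 of them called.

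On simulated data of 14145 genes the model recovered 29.9% of 2-fold, 94% of 4-fold and 100% of 8-fold changes, and 15 of 164 calls were false. Alternatives were no block, RLE size factors, DESeq2 1.42.0, limma-voom (limma 3.58.1), no filter or filterByExpr, a threshold of 0.01, all 12 libraries, each replicate number left out, an offset for transcript length, and scaling without ribosomal protein genes. Counts of libraries of 1 genotype always differed by more than sampling noise. Promoter sequence was not analysed here.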

Additional observations from a re-analysis of the deposited data

How the results depend on the processing

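No called gene changed direction under any of the alternatives run. The totals moved more: against 334 genes (219 higher and 115 lower in daf-2 than in pfd-6), leaving out the replicate block gave 37 (26 and 11), DESeq2 660 (391 and 269), no filter on low counts 1028 (645 and 383), a threshold of 0.01 116 (84 and 32) and the fit of all 12 libraries 219 (144 and 75). Leaving out each replicate number in turn gave 285 to 1936 genes, 169 to 1430 higher and 112 to 506 lower. RLE size factors (388), limma-voom (371), filterByExpr (333), the transcript length offset (348) and scaling without ribosomal protein genes (395) stayed within 1.5 times of 334. With bias-adjusted dispersions, a setting chosen after the data were seen, 348 genes were called, and 392 with no filter as well.

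Pairing by replicate number decides how many genes pass. Without the block 711 genes had an unadjusted p under 0.05, against 1903 with it, and of 84 named genes that were called 21 kept their call: H39E23.3, spp-9, clec-18, Y39G8B.7, F15B9.6, clec-15, mtl-1, Y9C9A.16, hsp-70, pals-26, cyp-35B1, sod-3, clec-190, C32H11.4, ins-7, F23F12.3, F55G11.2, dod-22, clec-10, ilys-5 and fbxa-151. The fit of all 12 libraries kept 57 of the 84, leaving out replicate 1 kept 64, replicate 2 66 and replicate 3 all 84. Leaving out replicate 3 removes both libraries low in ribosomal protein transcripts, and 2 libraries per genotype remain. The cause of the other moves was not tested. On simulated data of this design 29.9% of 2-fold changes, placed in genes above a minimum mean count, were recovered. Changes of that size can therefore be missed at this depth and replication.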

Other observations

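The called genes were not spread evenly over the genome, as a count with no test. On chromosome V 78 genes were called higher and 42 lower in daf-2 than in pfd-6, 4.34% of the 2768 tested there, against 1.34% on chromosome III to 2.35% on chromosome IV for the other chromosomes. Called genes that are next to each other among the genes tested, with the same direction, formed 36 runs of 82 genes, 25 runs higher and 11 lower in daf-2. The longest had 4 genes. One, fipr-23, C37A5.3, fipr-22 and fipr-24 (WBcel235, chromosome I, 14153228 to 14158078), belongs mostly to a family of fungus-induced peptides. The levels of fipr-22 were 18.3, 39.4 and 0.760 CPM in daf-2 animals, against 1.23, 1.28 and 0.162 CPM in pfd-6 animals, lowest in library 3 of each genotype. The other is nspc-16 to nspc-19 (chromosome X, 14523575 to 14529114), lower in daf-2 as given above.

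The neighbours F56D6.9, F56D6.8 and dct-8 (chromosome IV, 3892327 to 3895506) were all called higher in daf-2 animals. Levels of dct-8 were 13.8, 14.1 and 0.855 CPM in daf-2 animals, against 1.48, 1.503 and 0 CPM in pfd-6 animals (log2 fold change 3.46, adjusted p = 0.008). The double mutant had 0.317 to 0.930 CPM of it, and N2 0.276 to 4.23 CPM.

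The neighbours unc-38, a subunit of the nicotinic acetylcholine receptor, and icmt-1 (chromosome I, 4897620 to 4903264) rose together. Transcripts of unc-38 were at 12.6, 10.4 and 73.6 CPM in daf-2 animals, against 1.97, 1.95 and 4.07 CPM in pfd-6 animals (3.06, adjusted p = 0.00587). Both genes were highest in library 3 of daf-2, and the double mutant had 16.8 to 24.7 CPM of unc-38, against 1.17 to 2.27 CPM in N2.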
